A study of Mus musculus with 6 samples.

Results

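The replication-independent histone variant genes are described here in cultured mouse ovarian granulosa cells given cyclophosphamide. Members were the rows of the deposited expression table whose symbol matched a list of 10 older gene names, and all 10 were found among 54532 rows. They are H3f3a and H3f3b (histone H3.3), H2afz and H2afv (H2A.Z), H2afx (H2A.X), H2afj (H2A.J), H2afy and H2afy2 (macroH2A), and H1f0 and H1fx (linker histones). Messenger RNA was sequenced from 3 libraries made after 24 h with cyclophosphamide, a prodrug of an alkylating agent used against cancer, and from 3 libraries of untreated cells. All 6 libraries are labelled as wild-type granulosa cells grown in DMEM/F12 with 10% serum, and the drug was added after the cells had adhered. The labels call this an in vitro model of premature ovarian failure, although the treatment label itself names an intraperitoneal injection. Labels used here state no dose, strain or age, nor whether replicates came from separate cultures, so p-values measure only the spread between these libraries, which may be technical.

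Most histone genes are transcribed in S phase, and their messages end in a stem-loop without a poly(A) tail. Apart from an H2afx message without a poly(A) tail, named below, the variants described here come from ordinary spliced or unspliced polyadenylated messages. Most are made through the whole cell cycle, and the variants replace the S-phase histones at particular places in chromatin. H3.3 is laid down in active genes by HIRA and in repeats by DAXX and ATRX, H2A.Z flanks transcription start sites, phosphorylated H2A.X marks DNA breaks, macroH2A carries a large extra domain and is enriched in silent chromatin, and linker histones close the nucleosome. The H1f0 product is known for building up in cells that have stopped dividing, and H2A.J was found to build up in senescent human fibroblasts.

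The coding sequences of the H3.3 and H2A.Z genes are shown because the 2 genes of each pair encode nearly or wholly the same protein while their messages had different fold changes. They are the longest coding sequences of equal length in the GENCODE M21 transcripts, joined over the exons, and their first 300 bases are written 5′ to 3′ from the start codon, with the bases that differ between partners in capitals.
H3f3a, within chr1:180800832-180813943, minus strand: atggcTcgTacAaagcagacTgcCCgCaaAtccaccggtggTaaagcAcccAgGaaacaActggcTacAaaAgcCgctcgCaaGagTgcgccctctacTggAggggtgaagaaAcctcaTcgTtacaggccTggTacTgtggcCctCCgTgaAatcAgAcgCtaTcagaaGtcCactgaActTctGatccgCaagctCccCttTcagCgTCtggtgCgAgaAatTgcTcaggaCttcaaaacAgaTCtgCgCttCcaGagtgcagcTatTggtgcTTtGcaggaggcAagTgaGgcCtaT
H3f3b, within chr11:116021912-116027962, minus strand: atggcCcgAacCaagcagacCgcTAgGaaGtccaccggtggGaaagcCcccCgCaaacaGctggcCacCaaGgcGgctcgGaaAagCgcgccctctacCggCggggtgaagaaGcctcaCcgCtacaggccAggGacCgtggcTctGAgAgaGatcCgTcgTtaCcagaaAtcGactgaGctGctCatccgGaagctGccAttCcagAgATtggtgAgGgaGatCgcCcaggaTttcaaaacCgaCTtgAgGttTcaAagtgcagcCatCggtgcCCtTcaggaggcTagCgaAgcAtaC
H2afv, within chr11:6427229-6444443, minus strand: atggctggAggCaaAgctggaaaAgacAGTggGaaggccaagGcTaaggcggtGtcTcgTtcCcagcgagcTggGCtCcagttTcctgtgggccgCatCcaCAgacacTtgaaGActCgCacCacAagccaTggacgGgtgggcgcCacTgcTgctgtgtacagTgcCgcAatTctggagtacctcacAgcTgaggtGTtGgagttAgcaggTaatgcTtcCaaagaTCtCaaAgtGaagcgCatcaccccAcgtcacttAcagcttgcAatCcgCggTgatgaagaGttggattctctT
H2afz, within chr3:137864487-137866922, plus strand: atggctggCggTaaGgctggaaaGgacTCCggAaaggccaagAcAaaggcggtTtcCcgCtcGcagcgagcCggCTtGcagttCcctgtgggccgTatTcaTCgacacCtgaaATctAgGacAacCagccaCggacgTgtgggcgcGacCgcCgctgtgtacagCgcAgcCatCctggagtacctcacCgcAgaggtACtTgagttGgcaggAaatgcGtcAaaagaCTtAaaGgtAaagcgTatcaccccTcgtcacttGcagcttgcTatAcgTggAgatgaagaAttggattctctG
The H3.3 genes differed at 95 of 408 coding bases (76.7% identical), and 0 of 136 codons coded for another residue. The H2A.Z genes differed at 80 of 384 coding bases (79.2% identical), and 3 of 128 codons coded for another residue. Of these differences, the printed first 300 bases hold 72 for H3.3 and 62 for H2A.Z, with 2 of the 3 changed H2A.Z codons. The longest run of identical bases was 23 between the H3.3 genes and 14 between the H2A.Z genes. H2afx is represented by its last 30 coding bases, within chr9:44334694-44336077 on the plus strand, since they hold the serine and glutamine codons (capitals) at which damage kinases phosphorylate H2A.X.
H2afx, coding end: aagaaggcctcgcaggccTCTCAGgagtac
Gene coordinates are those of the deposited table, whose starts and ends equal GENCODE M21 (build GRCm38) for all 10 members and for 98.3% of 54409 shared gene IDs, although the submitters' processing notes name GRCm39.

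Values are FPKM, which scale reads to gene length and a library size, and each was traced back to whole reads. The library size that the values imply was not the read total. It was 0.987, 1.04 and 1.03 times that total in the cyclophosphamide libraries and 0.993, 0.991 and 0.975 times in the untreated ones. Depth was 16689902 to 17275338 reads in the cyclophosphamide libraries and 16458385 to 17607586 in the untreated ones. The 10 members together held 23530 to 25976 reads per cyclophosphamide library (0.141% to 0.150% of all reads) and 24310 to 29783 per untreated library (0.148% to 0.169%). Each member had at least 175 reads in every library. Granulosa markers were present, with a summed level of 1024 to 1326 FPKM with cyclophosphamide and 2706 to 2873 FPKM without. Of them 9 of 10 tested genes fell, Kitl, the KIT ligand gene, rose (log2 fold change 0.96 ± 0.074), and Amh and Cyp19a1 lay below the filter. The share lower over all genes was 35.8%. The proliferation markers fell too, 11 of 12 of them, with a summed level of 120.6 to 143.8 FPKM with cyclophosphamide and 270.1 to 271.3 FPKM without, and the part of either shift in the results below was not tested. Markers of other ovarian cells also differed, with a summed level of 8.18 to 9.38 FPKM for macrophages with cyclophosphamide and 3.53 to 4.18 FPKM without (Csf1r and Cd68 higher, the other 6 of 8 below the filter), and 2.45 to 4.03 FPKM for oocytes with cyclophosphamide and 0.676 to 1.03 FPKM without (Gdf9 higher of 2 tested, the other 7 of 9 below the filter). Surface epithelium markers summed to 49.8 to 73.1 FPKM with cyclophosphamide and 106.1 to 119.5 FPKM without (4 of 5 lower). Most of that sum was Krt8 and Krt18, at means of 23.0 and 35.7 FPKM with cyclophosphamide and 51.1 and 60.7 FPKM without. Upk3b, Krt19 and Msln had means under 1 FPKM in both groups. Theca and stroma markers summed to 7.92 to 9.45 FPKM with cyclophosphamide and 25.2 to 31.3 FPKM without (2 of 4 lower), and smooth muscle and pericyte markers to 14.7 to 25.3 FPKM with cyclophosphamide and 83.7 to 94.8 FPKM without (2 of 8 higher, 4 lower). The difference in the latter sum was mostly Acta2, at means of 9.64 FPKM with cyclophosphamide and 84.6 FPKM without. Tagln, Myh11, Cnn1, Des and Cspg4 had means under 1 FPKM in both groups. Endothelial markers summed to under 1 FPKM in every library, and no marker list had a gene at 0 in all libraries. In these bulk samples fewer cells of a kind and less RNA per cell cannot be told apart.

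Of the 10 members, 1 rose with cyclophosphamide (H1f0), 4 fell (H2afv, H3f3a, H2afx and H2afy2) and 5 did not pass the threshold (H2afj, H3f3b, H2afy, H1fx and H2afz). Changes were tested with limma on log2(FPKM + 0.1) over 14885 genes, two-sided, at a Benjamini-Hochberg adjusted p under 0.05, and fold changes are on that scale. The test called 68.9% of all genes, 33.1% higher and 35.8% lower, against 5 of the 10 members. The median log2 fold change was -0.097 over the members and -0.021 over all genes tested. The 2 groups of libraries did not overlap for 6 members, against 73.1% of all genes tested.

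**Figure D1:**
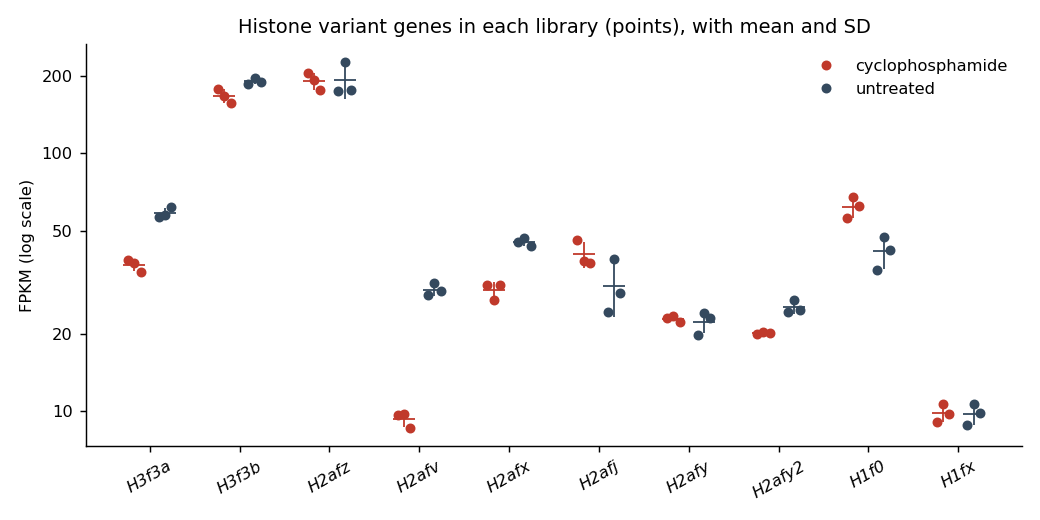
FPKM of each histone variant gene on a log axis in the 3 cyclophosphamide libraries (red, left of each pair) and the 3 untreated libraries (dark, right), with the mean and SD. The groups lie farthest apart for H2afv, at 8.61 to 9.70 FPKM with cyclophosphamide and 28.1 to 31.5 FPKM without.

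**Figure D2:**
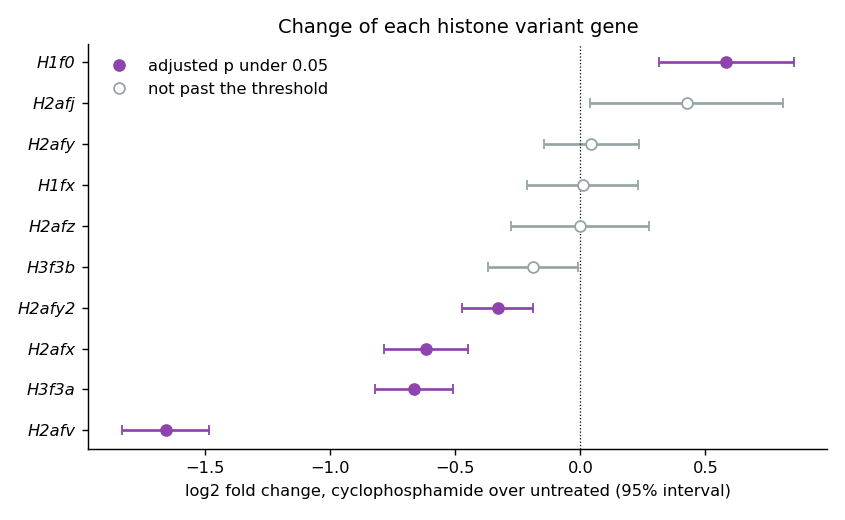
Log2 fold change of each member, cyclophosphamide over untreated, with its 95% interval from limma, ordered from the highest to the lowest. Filled points passed the adjusted threshold, and values run from 0.58 for H1f0 down to -1.66 for H2afv.

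The H3.3 genes both had lower means with cyclophosphamide, and the fall passed the test for H3f3a. H3f3a (ENSMUSG00000060743, chromosome 1) had 38.4, 37.7 and 34.6 FPKM in cyclophosphamide libraries, against 56.6, 57.5 and 61.7 FPKM in untreated libraries. Every treated library lay below every untreated one. The log2 fold change was -0.67 ± 0.067 (SE, 95% interval -0.82 to -0.51, limma adjusted p = 6.1e-05). H3f3b (ENSMUSG00000016559, chromosome 11), which makes the same protein, had 177.1, 167.3 and 156.9 FPKM with cyclophosphamide and 186.5, 196.2 and 188.7 FPKM in untreated libraries. These groups did not overlap either, and the 95% interval of the change lay below 0, but the adjusted p missed the threshold. Its log2 fold change was -0.19 ± 0.078 (95% interval -0.37 to -0.0092, limma adjusted p = 0.059), and the adjusted p was 0.013 without cyclophosphamide replicate 1, within a range of 0.013 to 0.27 over 16 alternatives.

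H3f3b outweighed H3f3a by more with cyclophosphamide in every library. The ratio of H3f3b to H3f3a, which does not depend on how libraries are scaled, was 4.61, 4.44 and 4.54 in cyclophosphamide libraries, against 3.29, 3.41 and 3.06 in untreated libraries. The ratios of the groups did not overlap, and the treated ratio was 1.39-fold the untreated one by geometric means (exact permutation test, two-sided, p = 0.1, which is the smallest that 3 libraries against 3 allow, and 0.1 after adjustment over 3 pairs). H3f3a made up 18.1% of the summed H3.3 level with cyclophosphamide and 23.5% without. The H3.3 sum itself was 204.0 ± 12.1 FPKM with cyclophosphamide and 249.1 ± 5.36 FPKM without (SD, n = 3 each).

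Some reads of the H3.3 genes may lie in copies or neighbours. The processed pseudogenes H3f3a-ps1, H3f3c and H3f3a-ps2 held 128, 73 and 21 reads over the cyclophosphamide libraries and 201, 95 and 39 reads over the untreated ones, while H3f3a had 2093 to 3653 reads in each library. H3f3a overlaps the noncoding genes Gm17275 (551 reads with cyclophosphamide, 124 without) and H3f3aos (86 reads with cyclophosphamide, 68 without) on the other strand. No source used here gives the strand setting of the counting, so reads of the shared stretches cannot be told apart, and their part in the fall of H3f3a was not tested.

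Of the H2A.Z genes, H2afv fell and H2afz did not pass the test. H2afv (ENSMUSG00000041126, chromosome 11), which encodes H2A.Z.2, had 9.63, 9.70 and 8.61 FPKM in cyclophosphamide libraries, against 28.1, 31.5 and 29.3 FPKM in untreated libraries. All treated libraries lay far below the lowest untreated one, and the treated mean was 0.315 times the untreated mean. The log2 fold change was -1.66 ± 0.075 (SE, 95% interval -1.83 to -1.48, limma adjusted p = 1.6e-06). H2afz (ENSMUSG00000037894, chromosome 3), which encodes H2A.Z.1, had 204.2, 191.9 and 176.2 FPKM with cyclophosphamide and 174.6, 225.7 and 176.3 FPKM in untreated libraries. The groups overlapped fully, and untreated replicate 2 was the highest of all 6 libraries. Its log2 fold change was -0.0032 ± 0.12 (95% interval -0.28 to 0.27, limma adjusted p = 0.98), with a sign that turned positive under 3 other scalings.

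The ratio within the H2A.Z pair lay higher in all treated libraries. The ratio of H2afz to H2afv was 21.2, 19.8 and 20.5 in cyclophosphamide libraries, against 6.21, 7.17 and 6.02 in untreated libraries. The treated ratio was 3.17-fold the untreated one by geometric means, with no overlap (exact permutation test, two-sided, p = 0.1, the smallest possible here, and 0.1 after adjustment over 3 pairs). H2afv made up 4.66% of the summed H2A.Z level with cyclophosphamide and 13.4% without. The H2A.Z total, mostly H2afz, was 200.1 ± 14.6 FPKM with cyclophosphamide and 221.8 ± 30.7 FPKM without (SD, n = 3 each), and the groups overlapped.

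**Figure D3:**
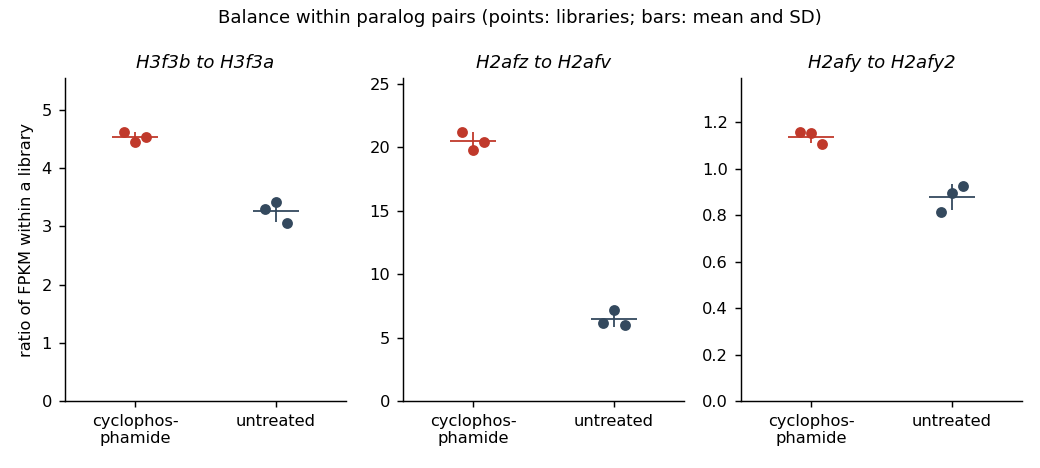
Ratio of FPKM within each library for H3f3b to H3f3a, H2afz to H2afv and H2afy to H2afy2 (linear axes from 0), with cyclophosphamide left and untreated right and the mean and SD as bars. In each panel the 3 treated libraries lie above the 3 untreated ones.

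The promoters of the H2A.Z pair are shown since both hold the CCAAT box while the fold changes of the genes differed. RefSeq windows of build GRCm38.p6 were found for 9 of 10 members, and the 250 bases before the start are printed with matches to CCAAT, on either strand, in capitals.
H2afv, chr11:6444444-6444693, minus strand: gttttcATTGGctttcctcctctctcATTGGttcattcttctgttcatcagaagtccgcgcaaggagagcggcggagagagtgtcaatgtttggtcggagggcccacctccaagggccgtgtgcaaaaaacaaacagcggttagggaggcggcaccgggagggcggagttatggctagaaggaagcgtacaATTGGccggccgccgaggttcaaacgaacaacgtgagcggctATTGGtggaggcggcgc
H2afz, chr3:137864237-137864486, plus strand: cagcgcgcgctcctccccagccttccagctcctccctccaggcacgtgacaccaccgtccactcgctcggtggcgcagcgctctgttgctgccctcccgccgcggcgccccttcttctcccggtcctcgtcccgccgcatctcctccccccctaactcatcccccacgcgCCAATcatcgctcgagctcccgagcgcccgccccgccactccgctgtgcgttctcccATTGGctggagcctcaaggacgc
The H2afv window held 4 CCAAT matches and the H2afz window 2. H3f3b had 4, H2afj 3 and H3f3a 1, so the motif was in 5 of 9 member windows, against 33.8% of 32851 windows of the same length. Members that fell and members that did not pass the test both had it. TATAAA was in 1 window (H3f3b), against 12.4% of all windows, AAACACA in 1 (H3f3a), against 6.25%, and TGACNNNGC in 1 (H3f3b), against 10.2%. TGACGT, TGATGNAA and TTCCCGC were in 0 of 9 windows, against 6.47%, 3.45% and 3.82%, all searched on both strands. These are matches of letters only, before RefSeq starts that can differ from the gene starts of the deposited table. For H3f3b the bases searched lay within 116024455 to 116024754, inside the gene as placed by that table (116021912 to 116027962). Those of H3f3a, H2afy and H2afy2 also lay inside their genes as placed there, and those of H1fx and H2afj lay partly inside.

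H2afx fell and H2afj did not pass the test. H2afx (ENSMUSG00000049932, chromosome 9, 1 exon), whose product marks DNA breaks once phosphorylated, had 30.8, 26.9 and 30.8 FPKM in cyclophosphamide libraries, against 45.3, 46.9 and 43.6 FPKM in untreated libraries. All treated values lay below all untreated ones. The log2 fold change was -0.62 ± 0.073 (SE, 95% interval -0.78 to -0.45, limma adjusted p = 0.00014). The H2afx message is also known in a form without a poly(A) tail, which selection on poly(A) would not take up. H2afj (ENSMUSG00000060032, chromosome 6, 136808244 to 136810074) had 46.2, 38.2 and 37.4 FPKM with cyclophosphamide and 24.3, 39.0 and 28.8 FPKM in untreated libraries. Only untreated replicate 2 reached the treated values. Its log2 fold change was 0.43 ± 0.17 (95% interval 0.040 to 0.81, limma adjusted p = 0.0501), and without untreated replicate 2 it was 0.61 with adjusted p = 0.0040, within a range of 0.0040 to 0.15 over 16 alternatives.

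Of the macroH2A genes, H2afy2 fell and H2afy did not pass the test. H2afy2 (ENSMUSG00000020086, chromosome 10, 61738665 to 61784147), which encodes macroH2A2, had 19.9, 20.2 and 20.1 FPKM in cyclophosphamide libraries, against 24.2, 26.9 and 24.8 FPKM in untreated libraries. The treated libraries lay close together and below the untreated ones. The log2 fold change was -0.33 ± 0.062 (SE, 95% interval -0.47 to -0.19, limma adjusted p = 0.0017). H2afy (ENSMUSG00000015937, chromosome 13, 56073619 to 56136361), which encodes the macroH2A1 splice forms, had 23.0, 23.3 and 22.3 FPKM with cyclophosphamide and 19.8, 24.0 and 22.9 FPKM in untreated libraries. These groups overlapped, with a log2 fold change of 0.044 ± 0.082 (95% interval -0.14 to 0.23, limma adjusted p = 0.65). The ratio of H2afy to H2afy2 was 1.16, 1.15 and 1.11 with cyclophosphamide, against 0.815, 0.894 and 0.926 in untreated libraries (exact permutation test, two-sided, p = 0.1, the smallest possible here, and 0.1 after adjustment over 3 pairs).

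Gene-level values hide parts of the macroH2A picture. The length used for H2afy was 6809 bases, the union of all its exons, while its coding transcripts in GENCODE M21 have 2046 and 1933 bases, so its FPKM is low for its number of reads, and the table cannot tell the macroH2A1 splice forms apart. H2afy overlaps the antisense gene Gm47071, which had 437 reads over the cyclophosphamide libraries and 173 over the untreated ones, beside 2199 to 2857 reads of H2afy in each library. H2afy2 overlaps Aifm2 on the other strand, with 2863 reads over the cyclophosphamide libraries and 2782 over the untreated ones, beside 712 to 1021 reads of H2afy2 in each library.

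H1f0 was the member that rose. H1f0 (ENSMUSG00000096210, chromosome 15, 79028450 to 79030504, 1 exon), a linker histone gene, had 56.0, 67.9 and 62.7 FPKM in cyclophosphamide libraries, against 35.4, 47.4 and 42.1 FPKM in untreated libraries. All treated libraries lay above all untreated ones, and the treated mean was 1.49-fold the untreated mean. The log2 fold change was 0.58 ± 0.12 (SE, 95% interval 0.31 to 0.85, limma adjusted p = 0.0024). H1fx (ENSMUSG00000044927, chromosome 6, 87980421 to 87981637, 1 exon), which encodes the linker histone H1.10, had 9.08, 10.6 and 9.75 FPKM with cyclophosphamide and 8.80, 10.6 and 9.87 FPKM in untreated libraries. Its groups overlapped, and the log2 fold change was 0.0092 ± 0.096 (95% interval -0.21 to 0.23, limma adjusted p = 0.94). H1fx overlaps the antisense gene Gm5577, which had 61 reads over the cyclophosphamide libraries and 79 over the untreated ones. H1fx itself had 175 to 232 reads in each library, and the part of shared stretches in its value was not tested.

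H1f0 held a larger share of the linker histone messages with cyclophosphamide than without. Hist1h1c, the most abundant S-phase linker gene here, which encodes H1.2, had 4.75, 3.79 and 3.19 FPKM in cyclophosphamide libraries, against 23.5, 26.2 and 26.7 FPKM in untreated libraries. Of the summed level of 7 linker histone genes, H1f0 held 79.7% to 82.4% with cyclophosphamide and 51.7% to 55.3% without. Hist1h1c held 4.20% to 6.76% with cyclophosphamide and 30.6% to 34.3% without, and H1fx held 12.8% to 12.9% with cyclophosphamide and 12.4% to 12.8% without. These shares cover polyadenylated RNA, which holds little of the S-phase histone messages.

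**Figure D4:**
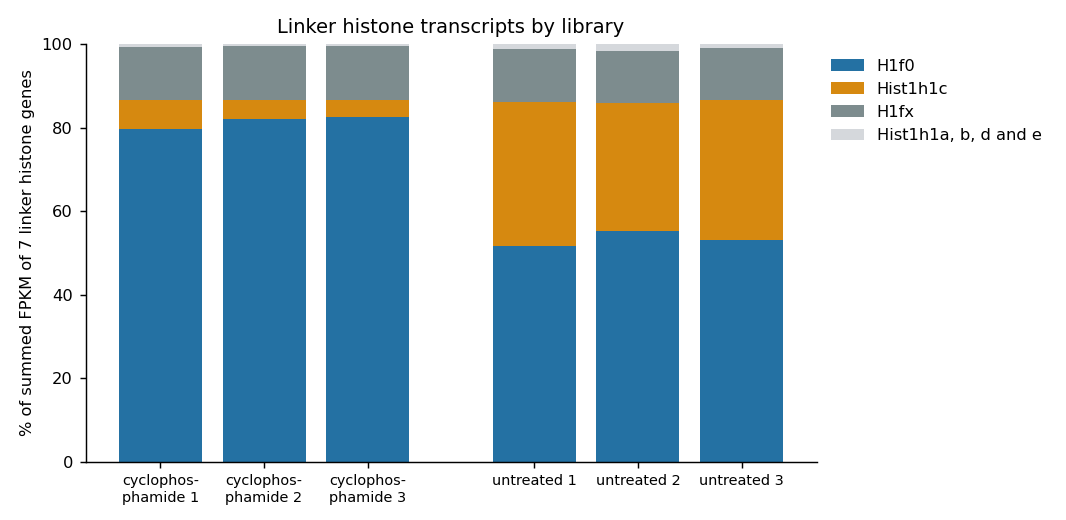
Share of the summed FPKM of 7 linker histone genes in each library, stacked to 100%, with the 3 cyclophosphamide libraries left and the 3 untreated libraries right. H1f0 (blue) holds 79.7% to 82.4% of the treated bars and 51.7% to 55.3% of the untreated bars, and Hist1h1c (orange) shrinks to 4.20% to 6.76% in the treated bars.

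The order of levels per length differed between the groups below the 2 highest members. The lengths are unions of all exons, so the order of genes and their shares also depend on the annotation. H2afy was scaled to 6809 bases, although its coding transcripts have 2046 and 1933, while H1f0 was scaled to the 2055 bases of its only transcript. H2afz and H3f3b were the highest members in both groups, at means of 190.8 and 167.1 FPKM with cyclophosphamide and 192.2 and 190.5 FPKM without, and their ranges overlapped each other in each group. Together they made up 60.7% of the summed level of the 10 members with cyclophosphamide and 59.2% without. With cyclophosphamide H1f0 came next at 62.2 FPKM, then H2afj at 40.6 and H3f3a at 36.9, whose ranges overlapped each other. In untreated cells H3f3a came next at 58.6 FPKM, then H2afx at 45.2, H1f0 at 41.6, H2afj at 30.7 and H2afv at 29.6, and each of these last 4 overlapped its neighbour. H2afv stood last with cyclophosphamide at 9.32 FPKM, overlapping H1fx at 9.82. The sum over the 10 members was 589.2 ± 27.9 FPKM with cyclophosphamide and 645.8 ± 53.3 FPKM without (SD, n = 3 each), and the groups overlapped.

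Of 8 genes that place H3.3, 4 rose and 2 fell, and the share called is near the 68.9% of all genes. Ubn1, a subunit of the HIRA complex, had 25.1, 22.7 and 24.1 FPKM in cyclophosphamide libraries, against 13.2, 12.6 and 13.2 FPKM in untreated libraries (log2 fold change 0.88 ± 0.064, limma adjusted p = 1.2e-05). Daxx rose by 0.63 ± 0.076 on the log2 scale, while its partner Atrx fell by 0.49 (SE 0.092) and Cabin1, another HIRA subunit, by 0.30 (SE 0.085). Hira itself had 2.56 FPKM with cyclophosphamide and 2.96 FPKM without, and did not pass the test (adjusted p = 0.21). The list's median log2 fold change was 0.39, against -0.021 over all genes tested.

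Among 20 genes that put in or take out H2A.Z, 9 rose and 2 fell, and the number called ran from 8 to 14 over the alternatives. Anp32e, the chaperone that strips H2A.Z from chromatin, had 12.5, 14.0 and 12.8 FPKM in cyclophosphamide libraries, against 32.1, 32.1 and 33.5 FPKM in untreated libraries, with no overlap (log2 fold change -1.31 ± 0.065, limma adjusted p = 2.3e-06). Ruvbl2, an ATPase of the SRCAP, p400 and INO80 remodellers, rose by 1.03 ± 0.067 and Mrgbp, a subunit of the p400 complex, by 0.75 ± 0.082, and the scaffold Trrap fell by 0.60 (SE 0.12). The catalytic genes Srcap (log2 fold change 0.022 ± 0.17) and Ep400 (-0.037 ± 0.068) did not pass the test, with adjusted p of 0.91 and 0.65. The list's median was 0.20, and 55.0% of it was called against 68.9% of all genes.

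Of 17 tested genes that write, read or erase H2A.X phosphorylation, 6 rose and 7 fell, and the 76.5% called is near the 68.9% of all genes. Ppm1d, the WIP1 phosphatase that removes the mark, had 24.6, 16.7 and 19.8 FPKM in cyclophosphamide libraries, against 6.56, 6.08 and 6.21 FPKM in untreated libraries (log2 fold change 1.66 ± 0.13, limma adjusted p = 1.8e-05). Eya3, a phosphatase for the terminal tyrosine of H2A.X, rose by 0.72 ± 0.064, whereas its relative Eya4 fell by 1.66 (SE 0.15). Brca1, a repair factor recruited to marked chromatin, fell by 1.79 on the log2 scale (SE 0.15). The kinase gene Atm had a log2 fold change of 0.088 ± 0.10 and did not pass the test (adjusted p = 0.48). Eya1 lay below the filter, and the list's median was 0.088.

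Of 6 macroH2A partners, Cul3, a ubiquitin ligase scaffold, rose by 0.80 ± 0.082 on the log2 scale and Atrx fell, as given for H3.3. Chd1l, Parg, Parp1 and Spop did not pass the test, with log2 fold changes between -0.12 and 0.066. The share of these partners called was 33.3%, against 68.9% of all genes. Of 12 general and linker histone chaperones, 5 rose and 2 fell (58.3% called, against 68.9% of all genes), with a median of 0.15. Ssrp1, a subunit of the FACT complex, rose by 0.70 ± 0.084 and the histone importer Ipo4 by 0.60 ± 0.073. Rbbp7, a histone-binding subunit of several complexes, fell by 0.66 (SE 0.069) and Ptma, a chaperone of linker histone H1, by 0.60 (SE 0.10).

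**Figure D5:**
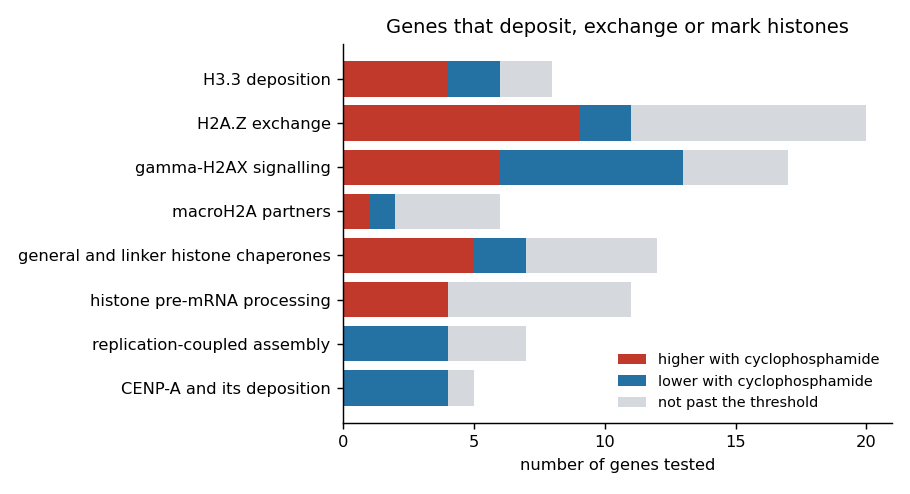
Number of tested genes in each list that rose (red), fell (blue) or did not pass the threshold (grey) with cyclophosphamide against untreated. Genes of H2A.Z exchange had 9 higher and 2 lower, and the lists of replication-coupled assembly and of CENP-A had 4 lower and 0 higher each. Over all genes tested 33.1% were higher and 35.8% lower.

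Of 7 replication-coupled assembly genes, 4 fell and 0 rose (57.1% called, against 68.9% of all genes), and Dnajc9, Hat1 and Mcm2 did not pass the test. Asf1b, a histone chaperone of dividing cells, was at 1.40, 1.96 and 1.24 FPKM in cyclophosphamide libraries, against 6.23, 5.81 and 6.88 FPKM in untreated libraries (log2 fold change -1.99 ± 0.17, limma adjusted p = 2.5e-05). Chaf1a, the large subunit of the assembly factor CAF-1, fell by 0.85 (SE 0.11). Of 11 genes of histone transcription and pre-mRNA processing, 4 rose and 0 fell (36.4% called, against 68.9% of all genes). Those that rose include Lsm11 of the U7 particle (1.16 ± 0.10) and Npat, the activator of histone transcription (0.92 ± 0.094). Slbp, the stem-loop binding protein gene, had a log2 fold change of -0.13 ± 0.097 (adjusted p = 0.26). The medians of these lists were -0.71 and 0.15.

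S-phase histone messages and the centromeric variant were lower with cyclophosphamide. The 67 protein-coding replication-dependent histone rows summed to 20.6 to 37.6 FPKM in cyclophosphamide libraries and to 88.5 to 95.6 FPKM in untreated libraries. Only 12 of the 67 had enough reads to be tested, and of these 10 fell and 0 rose. Among these 12, Hist1h1c and Hist1h2bc had by far the highest untreated means. Hist1h1c averaged 3.91 FPKM with cyclophosphamide and 25.5 FPKM without. Hist1h2bc, an H2B gene, averaged 7.03 FPKM with cyclophosphamide and 24.6 FPKM without (log2 fold change -1.81 ± 0.13). Near-identical copies and the lack of poly(A) tails make these rows uncertain. Cenpa, the H3 variant of centromeres, had 2.29, 2.14 and 1.89 FPKM with cyclophosphamide, against 6.67, 7.05 and 6.98 FPKM in untreated libraries, without overlap (-1.67 ± 0.11 on the log2 scale, adjusted p = 6.1e-06 in limma). Its chaperone Hjurp fell by 0.71 (SE 0.071), and 4 of 5 genes of that list fell with 0 higher. Over all genes 35.8% were lower and 33.1% higher. Among the proliferation markers Mki67 had 3.22, 2.49 and 2.64 FPKM with cyclophosphamide, against 18.0, 17.9 and 17.4 FPKM in untreated libraries. Cdk1, the mitotic kinase gene, fell by 1.75 on the log2 scale (SE 0.070), and Pcna did not pass the test (log2 fold change -0.22 ± 0.099, adjusted p = 0.082).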

How the data were processed

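The authors' file is labelled raw counts but holds deposited FPKM values, as the values show, beside gene lengths and other descriptions of each gene. Each nonzero value times its gene's length was divided by the smallest such product in its library, taken to stand for a single read. Every result (100% per library) lay within 0.01 of a whole number of reads. The submitters' processing notes list CASAVA, HISAT2 (version 2.0.5) and GRCm39. How reads were counted and scaled, and with which strand setting, is not stated in them.

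Genes with at least 10 reads in 3 libraries (14885 of 54532) entered limma 3.58.1 (R 4.3.3), fitted to log2(FPKM + 0.1) with moderated variances and Benjamini-Hochberg adjustment over all genes tested. The pseudocount understates changes of low genes. Ratios of partner genes had no pseudocount and an exact permutation test over libraries.

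The members and gene lists were chosen with earlier results of these data known. The text names the members and, in each pathway list, up to 2 genes called higher and up to 2 called lower with the smallest p-values. Lists of 6 or fewer genes could be named in full. Hira, Srcap, Ep400, Atm, Eya1, Slbp, Pcna, Dnajc9, Hat1, Mcm2 and the cell type markers named were named after their values were seen. Alternatives were other pseudocounts, filters and scalings, limma-voom, protein-coding genes alone, the replicate number as a block and leaving out each library.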

Additional observations from a re-analysis of the deposited data

How the results depend on the processing

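Calls on H1f0, H2afv, H3f3a, H2afx and H2afy2 kept their direction and passed the threshold under all 16 alternatives, and the count of changed members stayed between 5 and 7. H2afj passed with upper-quartile scaling (0.52), median-of-ratios scaling (0.45), scaling to total reads (0.47), limma-voom (0.42) and protein-coding genes alone (0.43), and without single libraries it ranged from 0.27 to 0.61. H3f3b passed with a mean of at least 1 FPKM (-0.19) and in limma-voom (-0.19), and without single libraries it ranged from -0.23 to -0.15. The sign of H2afz was positive with upper-quartile (0.091), median-of-ratios (0.019) and total-read scaling (0.044), and without single libraries it ranged from -0.067 to 0.12. H1fx ranged from -0.063 to 0.072 and H2afy from -0.039 to 0.10 without single libraries. The cause of these shifts was not tested. Of all genes, 8604 (mean of at least 1 FPKM, which tested 12245 genes) to 10411 (limma-voom) were called under the alternatives, against 10257 in the fit reported. Over the pathway lists 65 to 82 genes were called, against 71 in the fit reported. For H2A.Z exchange the number ran from 8 to 14, and for replication-dependent histones from 7 to 24, where the number tested ran from 9 to 58.

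Same-numbered libraries did not deviate together (correlations of -0.080, 0.0046 and -0.033), so the numbers were not used to pair them. With the replicate block 9937 genes were called, 5 members passed the threshold, and the log2 differences of the 3 ratios were 0.48, 1.67 and 0.38 as without it. Depth was lowest for H1fx, at 175 to 232 reads.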

Other observations

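Histone variants of the germ line had few or no reads. Of 25 rows for oocyte and testis variants (H1foo, H1fnt, Hils1 and the H2afb, H2al and H2bfm genes), 20 had no read in any library. The rest held 13 reads over the cyclophosphamide libraries and 8 over the untreated ones, with at most 11 reads for a gene over all 6 libraries (H1foo, the oocyte linker histone).

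Gene span differed within the paralog pairs. H2afv spans 17215 bases and H2afz 2436, and H3f3a spans 13112 bases and H3f3b 6051, so in these pairs the longer gene had the lower log2 fold change. H2afy spans 62743 bases and H2afy2 45483, and there the shorter gene had it. Windows before the RefSeq start were rich in CG dinucleotides, with 9 to 35 in the 9 member windows against a median of 6 over all windows.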
